A study of Mus musculus with 6 samples.

Results

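The genes described here are 9 brown fat genes, measured in the hearts of 3 wild-type (WT) and 3 TG-PKR1 mice. They are Ucp1, Cidea, Dio2, Elovl3, Otop1, Prdm16, Ebf2, Ppargc1a and Acot2, and the members were all probes other than controls that carry one of these names in the array's annotation. This gave 10 probes for 9 genes, out of 41174 probes for 27745 gene names. The mice were males aged 12 weeks, on a C57BL6/J background. TG-PKR1 mice overexpress the prokineticin receptor PKR1 from the alpha myosin heavy chain promoter, which is active in cardiomyocytes, and WT mice lack this transgene. Each heart was hybridized to 1 single-dye Agilent array. Replicate numbers only name the hearts and pair none of them. Whole hearts were used, so RNA from any fat attached to them would be part of each sample. The probe for Prokr1, the gene of the overexpressed receptor, was well above background on 0 of 6 arrays and differed by 0.09 on the log2 scale (SE 0.08), so it gives no check of the genotype.

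Brown adipocytes burn fatty acids to make heat. Cold activates sympathetic nerves, noradrenaline acts on beta-adrenergic receptors, and cAMP and protein kinase A then release fatty acids and switch on transcription. The fatty acids feed uncoupling protein 1 (Ucp1), which lets protons flow back through the inner mitochondrial membrane without making ATP. Some genes of this programme are used almost only in thermogenic fat. Others, such as the coactivator Ppargc1a, serve mitochondria in many tissues, heart muscle included. In mice, brown adipocytes lie around the aorta and other thoracic vessels, close to the heart. The 9 genes were therefore described as 5 thermogenic or brown-fat-selective genes (Ucp1, Cidea, Dio2, Elovl3 and Otop1), 3 fate regulators with roles outside brown fat (Prdm16, Ebf2 and Ppargc1a) and the mitochondrial thioesterase Acot2, which heart also uses.

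Start regions of 3 members are shown because cAMP is the signal that switches on thermogenic transcription and these genes are known cAMP targets. Ucp1 fell in TG-PKR1 hearts, Dio2 had a lower mean without passing the test, and Ppargc1a overlapped between the groups. Each sequence holds the 250 bases before the annotated start, from RefSeq on GRCm38.p6. Ucp1 lies at chr8:83290098-83290347 on the plus strand, Dio2 at chr12:90739039-90739288 on the minus strand and Ppargc1a at chr5:51567726-51567975 on the minus strand. Capitals mark the motif matches described next.
Ucp1: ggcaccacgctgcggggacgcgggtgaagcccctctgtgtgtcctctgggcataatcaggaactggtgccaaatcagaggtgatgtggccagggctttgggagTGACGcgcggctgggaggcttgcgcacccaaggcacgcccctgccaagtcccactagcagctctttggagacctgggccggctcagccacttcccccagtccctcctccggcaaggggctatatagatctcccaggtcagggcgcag
Dio2: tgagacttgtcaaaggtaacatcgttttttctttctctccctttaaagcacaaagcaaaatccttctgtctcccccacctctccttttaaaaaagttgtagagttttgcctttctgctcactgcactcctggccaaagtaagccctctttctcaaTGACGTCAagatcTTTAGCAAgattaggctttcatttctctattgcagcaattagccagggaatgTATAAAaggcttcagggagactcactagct
Ppargc1a: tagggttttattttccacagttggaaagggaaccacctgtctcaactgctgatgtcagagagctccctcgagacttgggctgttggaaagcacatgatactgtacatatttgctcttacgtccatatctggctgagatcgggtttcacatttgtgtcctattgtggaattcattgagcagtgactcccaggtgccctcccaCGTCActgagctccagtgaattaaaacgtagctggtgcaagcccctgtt

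Windows of 6 members (Ucp1, Dio2, Otop1, Prdm16, Ppargc1a and Acot2) were searched on both strands, over the 250 bases before the start. Cidea, Elovl3 and Ebf2 were not among them, so whether they hold these motifs is not described. The full cAMP response element TGACGTCA was found in Dio2 alone among the 6, 95 to 88 bases before the start. Its 5-letter core TGACG, which lies within it on both strands, was found in Ucp1 at 147 to 143 bases and in Ppargc1a at 49 to 45 bases before the start, as well as in Dio2 and Acot2. The full element occurs in 1.55% of all 32851 windows of this length and the core in 17.8%. Dio2 also held TTGCNNAA, a C/EBP-type element, and the TATA box TATAAA, which occur in 9.56% and 12.4% of windows. The letters TCAAGGTCA, bound by ERR receptors, were not in these 6 windows and occur in 0.387% of all windows. A match is a run of letters, and no binding was measured in these hearts.

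All 5 thermogenic genes were lower in every TG-PKR1 heart than in every WT heart, a pattern found in 2.73% of all probes tested. Ucp1 was the only member that passed the test adjusted over the 20000 brightest probes, of which 0.095% passed as lower. The 3 regulators and Acot2 overlapped between the groups. The median log2 difference was -1.77 over the 5 thermogenic genes and -0.19 over the 3 regulators, against 0.03 over all 20000 probes tested. The median of the regulators rested on single hearts, at -0.05 without WT replicate 1, -0.03 without TG replicate 1 and -0.34 without TG replicate 3. These groups were chosen with results of these hearts known, so the medians are descriptions. In whole-heart RNA, fewer cells of a type and less RNA per cell cannot be told apart. Values are normalized log2 signals without background subtraction, and they were compared by limma with Benjamini-Hochberg adjustment over the 20000 brightest probes. All 10 member probes were among these.

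Ucp1 is the proton carrier that defines thermogenic fat. Its log2 signal was 14.13, 12.91 and 14.08 in WT replicates 1, 2 and 3, and 10.86, 10.93 and 9.63 in TG replicates 1, 2 and 3. WT replicate 2 was the lowest WT heart and TG replicate 3 the lowest of all, and the highest TG-PKR1 value lay below the lowest WT value. Ucp1 fell by 3.23 on the log2 scale (SE 0.42, 95% interval -4.19 to -2.27, n = 3 hearts per group, limma adjusted p = 0.0445), a 9.41-fold lower signal. Its probe (mm8, chr8:86187994-86188053) was well above background on all 6 arrays and saturated on 0. None of the other probes among the 20000 had a lower difference on this scale, but with the processed signal, which is background-subtracted, and 75th percentile scaling together, Elovl3 (-4.08), Slc27a2 (-3.60) and Elovl6 (-3.39) were lower than Ucp1 (-3.31). The same test called 19 probes lower in TG-PKR1 hearts, which is 0.095% of those tested, and 0 higher. At an unadjusted p under 0.05, 1.66% of probes were lower and 0.715% higher, and all 5 thermogenic genes were among the lower ones. Ucp1 was the 1 member probe called of 10.

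The size of the Ucp1 difference held up better than its call. Over 20 alternative settings it was lower in 20, by -3.63 to -2.81 on the log2 scale, and it passed the threshold in 9. The call was lost when WT replicate 1 (adjusted p = 0.237), WT replicate 3 (0.258), TG replicate 1 (0.102), TG replicate 2 (0.0754) or TG replicate 3 (0.155) was left out, and was kept without WT replicate 2 (0.0300). It was also lost with scan mode as a block (adjusted p = 0.235), with 75th percentile scaling (0.103) and in the authors' deposited table (0.142), all by limma. Under these 3 settings, and when all 41174 probes were tested, 0 probes passed, so the calls of the other genes named here were lost there as well.

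**Figure D1:**
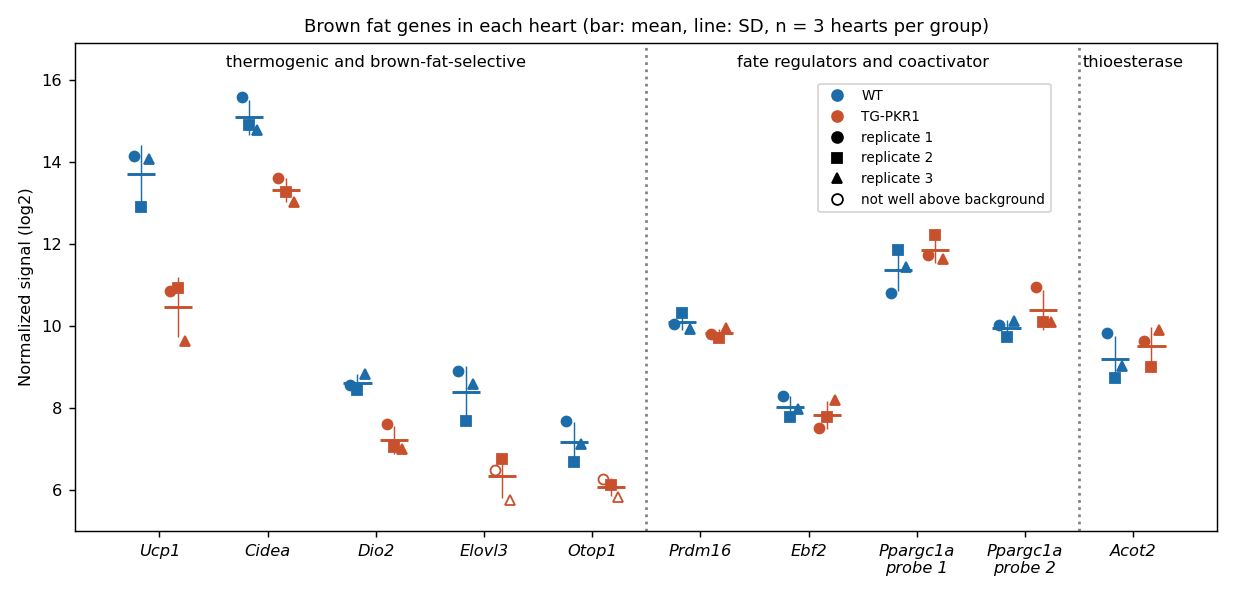
Normalized log2 signal (vertical axis) of the 10 member probes in each of 3 WT and 3 TG-PKR1 hearts, with bars at the group means and lines at 1 SD; open symbols mark signals not well above background. The TG-PKR1 hearts lie below all WT hearts for Ucp1, Cidea, Dio2, Elovl3 and Otop1, and the groups overlap for the other 5 probes.

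Cidea encodes a lipid droplet protein that is abundant in mouse brown fat and controls droplet growth. Its log2 signal was 15.57, 14.89 and 14.78 in WT replicates 1 to 3 and 13.61, 13.27 and 13.03 in TG replicates 1 to 3. The 2 groups did not overlap, and the SD within groups was 0.43 in WT and 0.29 in TG-PKR1 hearts. The difference was -1.77 (SE 0.25, n = 3 hearts per group, limma adjusted p = 0.0603), just outside the threshold. Its probe lies at mm8 chr18:67493066-67493125.

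Dio2 encodes the deiodinase that makes active thyroid hormone inside the brown adipocyte. Its log2 signal was 8.56, 8.45 and 8.84 in WT replicates 1 to 3, and 7.61, 7.07 and 7.0 in TG replicates 1 to 3. The highest TG-PKR1 heart was again below the lowest WT heart. The difference was -1.39 (SE 0.20, n = 3 hearts per group, limma adjusted p = 0.0811) at mm8 chr12:91130186-91130245.

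Elovl3 encodes an elongase of very long fatty acids that brown fat induces in the cold. Its log2 signal was 8.91, 7.70 and 8.58 in WT replicates 1 to 3, and 6.51, 6.76 and 5.76 in TG replicates 1 to 3. The WT signals were well above background on 3 of 3 arrays and the TG-PKR1 signals on 1 of 3, that of replicate 2. The difference was -2.05 (SE 0.35, n = 3 hearts per group, limma adjusted p = 0.145), and 17 of the 20000 probes had a lower one on this scale. With the background-subtracted processed signal scaled to the 75th percentile, the difference was -4.08 (limma adjusted p = 0.0724). With normexp background correction and quantile normalization it was -2.02, as it was with quantile normalization alone, and the cause of the larger value was not tested. The probe lies at mm8 chr19:46188583-46188642.

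Otop1, at mm8 chr5:38591747-38591806, encodes a proton channel that is expressed in brown fat. Its log2 signal was 7.68, 6.70 and 7.14 in WT replicates 1 to 3 and 6.27, 6.14 and 5.83 in TG replicates 1 to 3. The gap between the lowest WT and the highest TG-PKR1 heart was the smallest of the 5 genes, and TG-PKR1 signals were well above background on 1 of 3 arrays. The difference was -1.09 (SE 0.25, n = 3 hearts per group, limma adjusted p = 0.498), -1.56 with 75th percentile scaling and -2.89 with the processed signal and that scaling (limma adjusted p = 0.0724).

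Among all probes tested with a value in each heart, 545 of 19955 (2.73%) had every TG-PKR1 heart below every WT heart, against 5 of the 10 member probes. Log2 differences under -1 were found in 0.455% of the 20000 probes and in the same 5 member probes. For each of these 5 genes the two-sided exact permutation p was 0.1, the smallest that 3 hearts against 3 can give. TG replicate 3 had the lowest signal of its group for 5 of 5 thermogenic genes, and WT replicate 2 the lowest of its group for 4 of 5. The Pearson r with Ucp1 over the 6 hearts was 0.992 for Elovl3, 0.957 for Dio2, 0.956 for Otop1 and 0.953 for Cidea. After subtracting each group's mean it was 0.971, 0.589, 0.823 and 0.564 for the same genes. These correlations are descriptions over 6 hearts that share arrays and normalization.

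Prdm16, a zinc finger coregulator that commits precursors to brown fat and also acts in heart development, had log2 signals of 10.04, 10.31 and 9.94 in WT replicates 1 to 3. In TG replicates 1 to 3 they were 9.80, 9.71 and 9.94. TG replicate 3 lay within the WT range, and the difference was -0.27 (SE 0.16, 95% interval -0.64 to 0.09, limma adjusted p = 0.9999, n = 3 hearts per group). The interval allows a decrease of up to 0.64, which is smaller than the estimate for any thermogenic gene. It overlaps the 95% interval of Otop1 (-1.67 to -0.52), so Prdm16 and Otop1 are not separated by it. The files place this probe on mm8 chromosome 4 at 153159925-153159929, a span of a few bases, so its exact position is uncertain.

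Ebf2, an early B cell factor that marks brown precursors and opens their chromatin, had signals of 8.31, 7.78 and 7.98 in WT replicates 1 to 3 and 7.53, 7.78 and 8.19 in TG replicates 1 to 3. The groups overlapped, and TG replicate 3, the lowest heart for all 5 thermogenic genes, was here the highest of its group. The difference was -0.19 (SE 0.22, 95% interval -0.68 to 0.30, limma adjusted p = 0.9999, n = 3 hearts per group) at mm8 chr14:66383418-66383477.

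Ppargc1a, the coactivator that drives mitochondrial biogenesis and Ucp1 transcription and is abundant in heart muscle, had 2 probes. The first (mm8 chr5:51745937-51745996) gave 10.81, 11.84 and 11.44 in WT replicates 1 to 3 and 11.73, 12.21 and 11.62 in TG replicates 1 to 3. The second (mm8 chr5:51743906-51743965) gave 10.04, 9.74 and 10.11 in WT and 10.96, 10.10 and 10.11 in TG hearts. Both means were higher in TG-PKR1 hearts, by 0.49 (SE 0.28, 95% interval -0.14 to 1.12) and 0.43 (SE 0.25, 95% interval -0.14 to 0.99), with a limma adjusted p of 0.9999 each (n = 3 hearts per group). The first difference was 0.21 without WT replicate 1 and 0.73 without WT replicate 2. Over 20 alternative settings the second was 0.14 to 0.57. The 2 probes ordered the hearts differently, and their Pearson r over the 6 hearts was 0.0759.

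Acot2 encodes a mitochondrial thioesterase that splits long-chain acyl-CoA. It gave 9.82, 8.75 and 9.03 in WT replicates 1 to 3 and 9.63, 9.01 and 9.91 in TG replicates 1 to 3. The groups overlapped, with a difference of 0.32 (SE 0.32, 95% interval -0.41 to 1.04, limma adjusted p = 0.9999, n = 3 hearts per group) at mm8 chr12:84882869-84882928. Without WT replicate 1 the Acot2 difference was 0.63, and without WT replicate 2 it was 0.09. Its near-identical neighbour Acot1 had a difference of -0.19 (SE 0.25). Probes of such copies can bind transcripts of both, so the 2 genes are uncertain.

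To set the Ucp1 difference beside those of the other genes, its log2 signal minus that of each other gene was compared between the groups in 9 pairs. None of these pairs could pass a threshold of 0.05. Ucp1 had the lowest difference of all 20000 probes on this scale, so the sign of every pair was given by that and the values are a description of size. The shift of Ucp1 relative to the other gene was -1.46 for Cidea, -1.84 for Dio2, -1.18 for Elovl3 and -2.14 for Otop1. It was -2.96 for Prdm16, -3.05 for Ebf2, -3.72 for Ppargc1a (first probe) and -3.55 for Acot2. All 3 TG-PKR1 hearts lay below all 3 WT hearts in each of the 9 pairs, with a two-sided exact permutation p of 0.1 (0.1 after Benjamini-Hochberg adjustment), the smallest possible. The pairs share the Ucp1 values and are not independent. With the processed signal and 75th percentile scaling together, the order of Ucp1 and Elovl3 turned, with Elovl3 decreasing more than Ucp1 by 0.77 (exact permutation p = 0.4), and the shift relative to Otop1 was -0.42 (exact permutation p = 0.1).

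Some genes of fat cells in general fell as well. Of 14 such genes, 13 were among the 20000 probes, with a median difference of -0.98. Of these 13, 3 passed the test as lower, against 0.095% of all probes tested. At an unadjusted p under 0.05, 10 were lower, against 1.66% of all probes. In 11, every TG-PKR1 heart lay below every WT heart, against 2.73% of all probes. The mean log2 signal of the 13 genes was 12.27 to 12.55 in WT hearts and 11.18 to 11.42 in TG-PKR1 hearts. Adipoq, the hormone adiponectin of fat cells, was 12.44, 12.00 and 11.99 in WT replicates 1 to 3 and 10.38, 10.20 and 10.08 in TG replicates 1 to 3. It fell by 1.93 (SE 0.18, limma adjusted p = 0.0339, n = 3 hearts per group). The lipid droplet genes Plin1 (-2.25) and Cidec (-2.02) also passed. Car3, a carbonic anhydrase of fat and muscle, had -1.82 (SE 0.29), and Cfd, the adipokine adipsin, had -1.81 (SE 0.26). Lep, the hormone leptin, was well above background on 1 array of each group, and Cd36 (-0.02) and Lpl (0.02), which heart muscle also uses, did not differ by more than their SE. The part of these genes in the result for brown fat genes was not tested.

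Relative to Adipoq, Ucp1 was lower in each TG-PKR1 heart than in each WT heart, and the test could not pass. As for the other pairs, the sign of the mean difference was given by Ucp1 having the lowest difference of all probes tested. The values describe size only, against this single reference gene. Ucp1 minus Adipoq was 1.69, 0.90 and 2.08 in WT replicates 1 to 3, and 0.48, 0.72 and -0.44 in TG replicates 1 to 3. The 2 groups did not overlap, but the nearest hearts, WT replicate 2 and TG replicate 2, were close. The difference was -1.31 (SE 0.50, two-sided exact permutation p = 0.1, n = 3 hearts per group). It was -1.55 within the extended scans, -1.02 within the single scans and -0.43 on the slide with both groups.

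**Figure D2:**
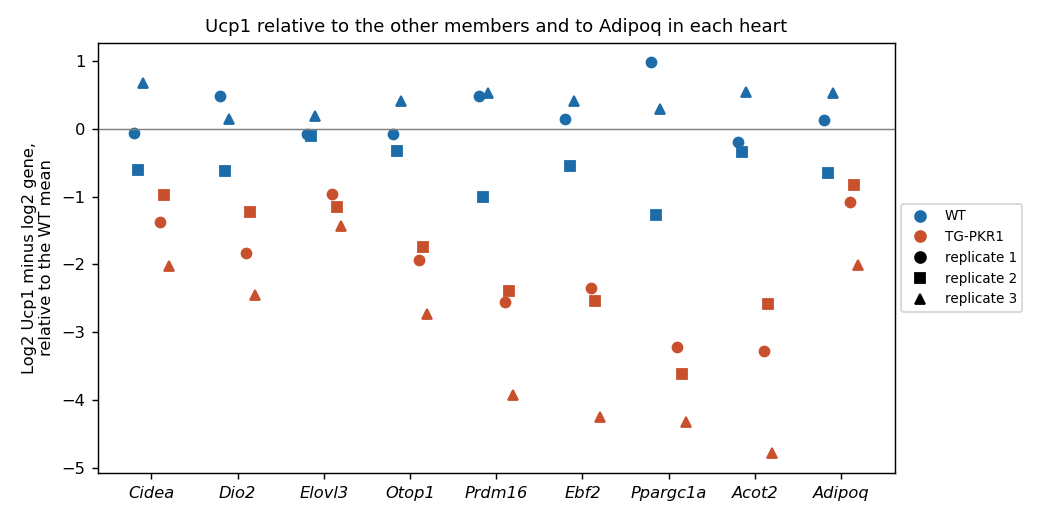
Log2 signal of Ucp1 minus that of each other member, or of Adipoq, in each heart, relative to the WT mean (vertical axis, log2 units). The 3 TG-PKR1 hearts lie below the 3 WT hearts in all 9 pairs, with a mean shift from -1.18 for Elovl3 to -3.72 for Ppargc1a.

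The arrays differed in how they were scanned. An extended range was used for WT replicate 1 and TG replicates 2 and 3, while WT replicates 2 and 3 and TG replicate 1 had 1 scan each. Spot signals at the 75th percentile were 11.4 to 14.1 times background in the first set and 2.08 to 3.97 times in the second, and 19650 to 24923 probes were well above background. Each set holds both groups, and 1 slide carried WT replicate 2 and TG replicate 1. Within the extended scans, the difference was -3.86 for Ucp1, -2.42 for Cidea, -1.53 for Dio2, -2.64 for Elovl3 and -1.69 for Otop1. Within the single scans it was -2.63, -1.22, -1.04, -1.63 and -0.65 for the same genes. On the shared slide it was -2.05, -1.27, -0.84, -1.19 and -0.43. All 5 were thus lower in TG-PKR1 hearts within each scan set and on the slide, and each difference was smaller in the single than in the extended scans. The 2 sets hold different hearts, so scan mode and heart cannot be told apart. Whether the 2 scan modes differ was not tested.

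Over both scan sets and the slide, Prdm16 had differences of -0.50 to -0.21 and Ebf2 of -0.35 to -0.25. Both hearts of the slide are also in the single scans, so the slide is not independent of that set. The first Ppargc1a probe differed by 1.1 in the extended scans, 0.09 in the single scans and -0.11 on the slide, so its direction did not hold throughout. The second gave 0.07, 1.03 and 1.21 in the same order, and Acot2 gave -0.36, 0.74 and 0.88. Neither the Ppargc1a nor the Acot2 means can be read as a difference between the groups.

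**Figure D3:**
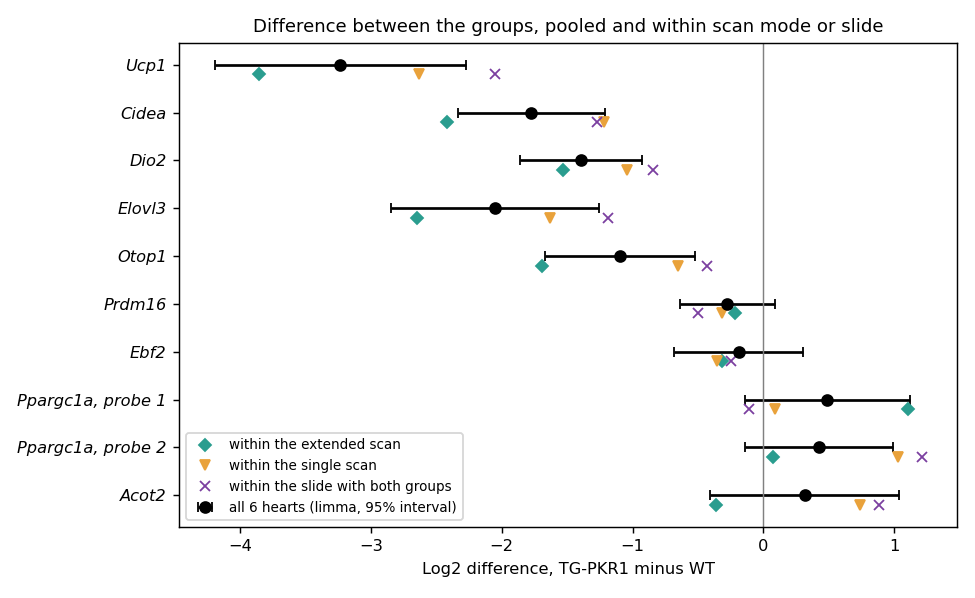
Difference in log2 signal, TG-PKR1 minus WT (horizontal axis), for each member probe. Black points are the limma estimates from all 6 hearts with their 95% intervals, and coloured symbols are differences within the extended scans, the single scans and the shared slide; the intervals of the 5 thermogenic genes lie below 0 and those of the other 5 probes include 0.

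Further genes of the brown fat programme were read from lists written with earlier results known, with 1 probe per gene. Of 14 other brown adipocyte genes, 10 were among the 20000 probes. Of these, 0 passed the limma test in either direction. At an unadjusted p under 0.05, 5 were lower, against 1.66% of all probes tested. In 6, every TG-PKR1 heart lay below every WT heart, against 2.73% of all probes, and the median of the list was -0.57. Clstn3, a calsyntenin of which adipocytes use a form of their own, had the largest difference at -2.55 (SE 0.40, limma adjusted p = 0.1005), followed by Slc27a2, a fatty acid transporter, at -2.16 (SE 0.39). The 2 highest were Epsti1 at -0.06 (SE 0.19) and Kcnk3, a potassium channel of brown fat and heart, at 0.25 (SE 0.28). Adrb3, the beta-adrenergic receptor of fat, and Lhx8 and Bmp8b, markers of brown fat, were not well above background on any array. Zic1, a marker of the classical brown lineage, was so on 1 array.

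The signalling arm from noradrenaline to Ucp1 showed 1 call, lower in TG-PKR1 hearts, against 0.095% of all probes tested. Of 11 adrenergic genes, 10 were tested and had a median of -0.12. Prkar2b, the RII beta subunit of protein kinase A that is abundant in fat, was 13.06, 12.82 and 12.57 in WT replicates 1 to 3 and 10.59, 10.69 and 9.54 in TG replicates 1 to 3. It fell by 2.54 (SE 0.30, limma adjusted p = 0.0339, n = 3 hearts per group). Pde3b, which breaks down cAMP, had -0.45 (SE 0.18) and Adcy3, an enzyme that makes it, -0.37 (SE 0.23). Mapk14, the p38 kinase, had 0.12 (SE 0.18) and Gnas, the stimulatory G protein, 0.37 (SE 0.30). Of 4 sympathetic nerve genes, 0 were among the 20000 probes. Th and Npy were not well above background on any array, Dbh was so on 1 array of each group (-0.17, SE 0.16) and Phox2a on all 6 (0.06, SE 0.06).

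All 12 genes of a mostly mitochondrial list that brown fat shares with heart muscle were tested, with a median of -0.05. Of these, 1 was called lower, against 0.095% of all probes tested. At an unadjusted p under 0.05, 2 were lower, against 1.66% of all probes. Letmd1, a mitochondrial protein needed for brown fat thermogenesis, was 11.31, 10.59 and 10.92 in WT replicates 1 to 3 and 9.32, 9.46 and 9.18 in TG replicates 1 to 3. It fell by 1.62 (SE 0.20, limma adjusted p = 0.0386, n = 3 hearts per group) and was the only call among the 12. Pdk4, which limits glucose use, had -0.70 (SE 0.27). The carnitine enzymes Cpt2 and Cpt1b had -0.15 and 0.06, the carnitine carrier Slc25a20 0.17 and Idh3a, of the citric acid cycle, 0.11. Of 9 genes of heat production without Ucp1, 0 passed limma's test, 0 had an unadjusted p under 0.05, and the median was -0.04. The calcium pumps Atp2a1 and Atp2a2 had 0.46 (SE 0.44) and 0.06 (SE 0.24), their regulator Sln -0.13 (SE 0.26), the mitochondrial creatine kinase Ckmt1 -0.12 (SE 0.15) and the creatine transporter Slc6a8 0.10 (SE 0.15).

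Of 20 other transcriptional regulators of brown fat, 17 were tested and 0 passed limma's test, with a median of -0.03. At an unadjusted p under 0.05, 2 were lower, against 1.66% of all probes tested. These 2 were Cebpa (-1.04, SE 0.37, and -0.57 without WT replicate 1) and Pparg (-0.98, SE 0.15, limma adjusted p = 0.0962), which drive fat cell differentiation in general. Ppargc1b, a relative of Ppargc1a, had 0.20 (SE 0.18) and Nrf1, which regulates mitochondrial genes, 0.20 (SE 0.19). Of 7 beige adipocyte genes, 3 were tested, Cited1 (-0.07), Slc27a1 (0.03) and Tbx1 (0.06), and Hoxc9, Shox2, Tmem26 and Tnfrsf9 were not well above background on any array.

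Relatives of the members were compared to see which branch of each family differed. Ucp2 (-0.02, SE 0.26) and Ucp3 (-0.37, SE 0.33), uncoupling proteins found outside brown fat, overlapped between the groups, as did Slc25a27 (0.12, SE 0.16), a more distant relative. Elovl6, the elongase that makes stearate in fat synthesis, was 10.82, 9.74 and 10.74 in WT replicates 1 to 3 and 7.95, 7.88 and 6.89 in TG replicates 1 to 3. It fell by 2.86 (SE 0.36, limma adjusted p = 0.0386, n = 3 hearts per group), while Elovl1 had -0.06 and Elovl5 -0.41. Cidec, the relative of Cidea used by fat cells in general, fell by 2.02. Ebf1 (-0.01), Ebf3 (-0.17) and Mecom (0.09), the relative of Prdm16, overlapped between the groups. Of 27 relatives, 15 were tested, with a median of -0.12. Of these, 2 passed as lower, against 0.095% of all probes tested. Dio1, Otop2 and Otop3 were not well above background on any array.

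**Figure D4:**
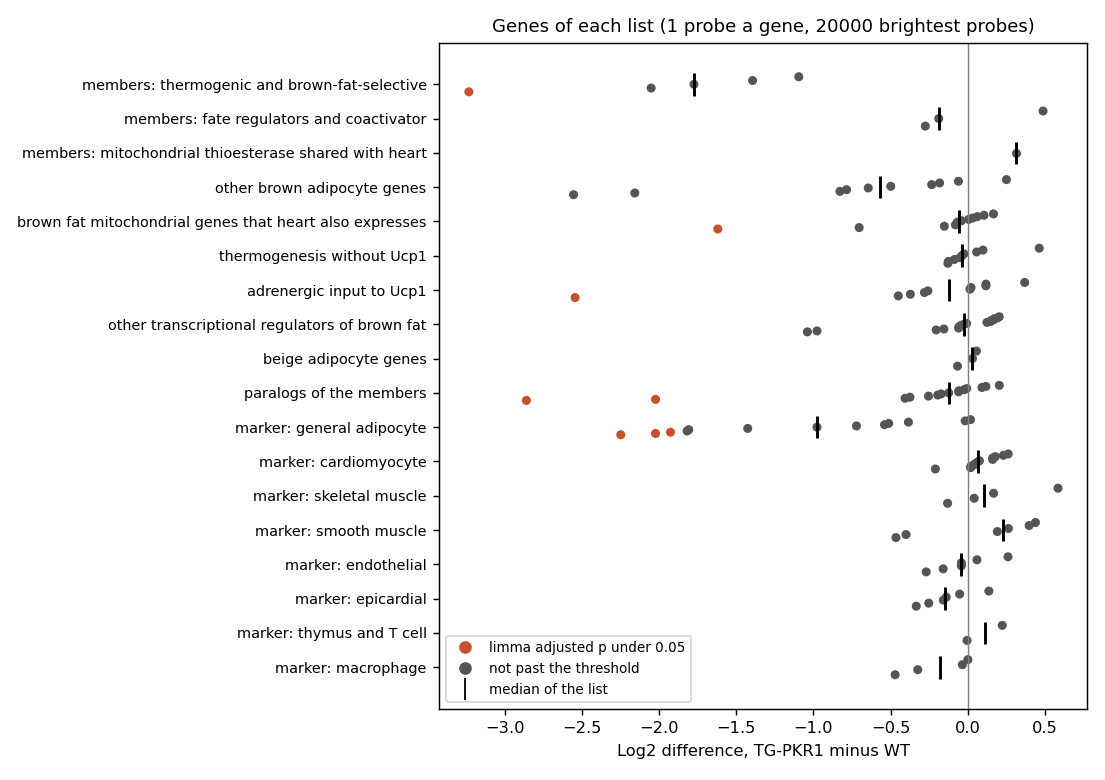
Difference in log2 signal, TG-PKR1 minus WT (horizontal axis), for the tested genes of each list, 1 probe per gene, with red points for a limma adjusted p under 0.05 and a bar at each list's median. Medians are -1.77 for the thermogenic members and -0.98 for general adipocyte genes, and lie between -0.57 and 0.23 for the other lists apart from the single thioesterase.

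Outside the members, the gene whose 6 heart values were most like those of Ucp1 was Elovl6, with a Pearson r of 0.999 over 6 hearts. It was followed by Kbtbd11 (0.998), Klb (0.995), a coreceptor for fibroblast growth factors in fat and liver, H2-Q10 (0.992) and Clstn3 (0.989). Their differences were -0.62 for Kbtbd11, -0.82 for Klb and -1.81 for H2-Q10. Among the other members, Prdm16 had an r of 0.477 with Ucp1, Ebf2 0.283, Acot2 -0.324 and Ppargc1a -0.603. Each r so far in this paragraph is over both groups and so holds the difference between them. With each group's mean subtracted, r with Ucp1 was -0.912 for Prdm16, -0.162 for Ebf2, 0.0309 for Acot2 and -0.232 for Ppargc1a.

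Markers of the other cells of the heart gave no call. The 12 cardiomyocyte markers, from Nppa (-0.21, SE 0.26) to Tnnc1 (0.26, SE 0.26), had a median of 0.07 and a mean log2 signal of 15.76 to 16.10 in WT and 15.73 to 16.32 in TG-PKR1 hearts, and 0 passed limma's test or had an unadjusted p under 0.05. The medians were 0.11 for skeletal muscle (4 of 8 markers tested, from Myh4 at -0.13 to Acta1 at 0.59), 0.23 for smooth muscle (6 of 6, from Cnn1 at -0.46 to Acta2 at 0.44) and -0.04 for endothelium (6 of 6, from Kdr at -0.27 to Pecam1 at 0.26). They were -0.15 for epicardium (6 of 6, from Msln at -0.33 to Tbx18 at 0.14), -0.18 for macrophages (4 of 4, with Adgre1 lowest at -0.47) and 0.11 for thymus, where 2 of 8 markers were tested. In each of these lists 0 markers passed limma's test and 0 had an unadjusted p under 0.05.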

How the data were processed

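RNA of 6 hearts was measured on Agilent one-colour arrays. For every spot, the authors deposited the scanner's output (Agilent Feature Extraction 9.5.1.1 per the file headers) as fluorescence intensity, not normalized between arrays, and a table of log2 values normalized by LOWESS against a median profile and filtered to bright probes. All value columns were matched to a heart.

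Control and outlier spots were left out. The log2 median signal, without background subtraction, was normalized per array by loess (span 0.3, 4 iterations). The loess fitted its difference from the median profile against the mean of the array and that profile. Spots of a probe were averaged. Here the 20000 probes with the highest median were tested by limma 3.58.1 (R 4.3.3; data.table, version 1.17.8), with a Benjamini-Hochberg threshold of 0.05. For probes outside these, the same fit over all probes gave the values. The number of arrays and their signal over background limit the precision.

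Members and lists were chosen with earlier results of these data known. The text names all members, the 5 genes most like Ucp1 and, of each brown fat list, the genes past the threshold and the 2 lowest and 2 highest of the rest. Of the other cell type markers mostly the ends of the range are named, of the relatives only some, and further genes for their known role. A gene in a list is represented by its brightest probe. Probe positions are those of mm8 in the files, and promoters are from RefSeq on GRCm38.p6. Alternatives were other normalizations, signals, filters, eBayes settings, scan and slide blocks, leaving out hearts, the deposited log2 table, and, added after seeing the data, loess on the median profile alone. The named SAM test was not run. On simulated data of 19955 probes with 200 changed by 2 log2 units, limma called 196 probes, which included 185 of the 200 changed ones (a recovery of 92.5%). The simulated hearts were drawn independently, without effects of scan mode or slide. This recovery is therefore a check of the code and need not hold for the real arrays.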

Additional observations from a re-analysis of the deposited data

How the results depend on the processing

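No paired analysis was possible because only WT replicate 2 and TG replicate 1 share a number in their titles, that of their slide. The direction of each of the 10 member probes was the same under every alternative that gave a value, and Elovl3 and Otop1 were not among the rows of the deposited table used here. The number of probes called lower, 19, rose to 33 with quantile normalization, 30 with normexp and quantile normalization together, and 31 with eBayes trend. It was 2 with loess on the median profile alone, and 0 with 75th percentile scaling, all probes, probes above background on at least 3 arrays, the deposited table or scan mode as a block. Leaving out 1 heart gave 0 to 19: 0 without WT replicate 1, WT replicate 3, TG replicate 1 or TG replicate 3, 8 without TG replicate 2 and 19 without WT replicate 2. Member probes called lower, 1, became 4 with quantile normalization, 3 with normexp and quantile normalization together and 3 with eBayes trend, and 0 under the same 5 settings and with loess on the median profile alone; leaving out 1 heart gave 0 to 2. With the processed signal and 75th percentile scaling together the median over thermogenic genes was -2.89, and Ucp1 minus Elovl3 turned to 0.77. Cidea was called in 3 of 20 alternatives, Dio2 in 2 of 20, Elovl3 in 3 of 19 and Otop1 in 0 of 19. The calls of Adipoq, Plin1, Prkar2b, Letmd1, Elovl6 and Cidec were kept in 11, 10, 9, 9, 9 and 8 of 20 alternatives, and their direction in 20 of 20. Signal close to background limits Elovl3 and Otop1. The cause of these shifts was not tested.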
